A study of Mus musculus with 24 samples.

Results

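The TAM receptors Axl, Mertk and Tyro3, their ligands Gas6 and Pros1, and 5 genes that work beside them in the uptake of dying cells, Mfge8, Itgb5, Itgav, Stab1 and Cd36, were followed in the blood of irradiated and unirradiated mice. These 10 genes were taken by name from the array annotation and were measured by 12 probes, Tyro3 and Itgav by a pair of probes each, among 29742 named genes. All 24 animals were male C57BL/6J mice. Young mice were 2 months old and old mice 21 months old; 6 mice of each age received 4 Gy of x-rays to the whole body and 6 of each age were sham-irradiated. RNA was taken from whole blood 24 h later, depleted of globin transcripts and hybridized with 1 dye, 1 mouse per array. Blood was drawn by cardiac puncture into a lysis solution, so that RNA of leukocytes, platelets and red cell precursors was measured together.

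Clearance of apoptotic cells, or efferocytosis, depends on the exposure of phosphatidylserine on the dying cell. Gas6 and protein S, the product of Pros1, bridge this lipid to the TAM receptor tyrosine kinases on the phagocyte, whereas Mfge8 bridges it to the integrins αvβ3 and αvβ5. Stabilin-1 (Stab1) binds phosphatidylserine directly, and Cd36 is a scavenger receptor that acts with αv integrins and thrombospondin-1. In blood, protein S is better known as an anticoagulant cofactor that circulates in plasma and is stored in platelets.

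Pros1, Itgb5 and Stab1 were the members that rose after irradiation at both ages, and their promoters are shown for that reason. Each sequence runs 5′ to 3′ from 250 bases before to 50 bases after the RefSeq start (GRCm38.p6). Capitals mark the 3 motifs searched on both strands, with overlapping copies of the last run together. They were a motif of the PU.1 type, which reads GAGGAA, a motif of the GATA type, which reads AGATAA, and a motif of the SP1 type, which reads GGGCGG.
Pros1, chr16:62854057-62854356, plus strand: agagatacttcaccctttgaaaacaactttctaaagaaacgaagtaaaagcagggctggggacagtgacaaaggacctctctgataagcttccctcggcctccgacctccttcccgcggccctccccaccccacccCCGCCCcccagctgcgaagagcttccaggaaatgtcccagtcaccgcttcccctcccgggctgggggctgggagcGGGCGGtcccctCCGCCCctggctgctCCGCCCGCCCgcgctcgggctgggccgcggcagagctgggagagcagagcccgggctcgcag
Itgb5, chr16:33829415-33829714, plus strand: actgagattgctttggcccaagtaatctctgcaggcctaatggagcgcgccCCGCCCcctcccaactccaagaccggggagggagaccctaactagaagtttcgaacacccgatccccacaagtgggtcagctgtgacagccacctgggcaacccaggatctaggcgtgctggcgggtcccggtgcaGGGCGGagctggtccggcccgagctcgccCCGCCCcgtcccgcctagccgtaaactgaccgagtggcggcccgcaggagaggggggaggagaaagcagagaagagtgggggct
Stab1, chr14:31168592-31168891, minus strand: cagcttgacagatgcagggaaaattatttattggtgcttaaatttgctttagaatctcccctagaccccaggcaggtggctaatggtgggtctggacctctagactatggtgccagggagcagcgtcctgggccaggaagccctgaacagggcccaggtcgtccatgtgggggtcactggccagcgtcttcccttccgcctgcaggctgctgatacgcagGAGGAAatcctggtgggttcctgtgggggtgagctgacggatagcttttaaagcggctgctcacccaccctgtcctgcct
The promoters of Pros1 and Itgb5 held the SP1-type motif 5 and 3 times and neither of the others, whereas that of Stab1 held the PU.1-type motif at 1 place and no SP1-type motif. All 10 members had a promoter in the table: the SP1-type motif was found in 9 of them, against 35.7% of the 32851 promoters of this length, the PU.1-type motif in 4 (Axl, Mfge8, Itgav and Stab1), against 28.3%, and the GATA-type motif in 0, against 11.2%. A match describes letters in this window and is not evidence of binding.

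Levels are given throughout as log2 of the background-corrected signal minus the median of the array, so that 1 unit is a doubling and 0 is the median spot. A difference was called where the limma p-value was below 0.005 and the Benjamini-Hochberg adjusted p, computed over all genes tested, was below 0.05. Of the 10 members, 9 passed the filters on background and variability and were tested among 17472 genes. Mertk was not distinguishable from background on 7 of the 24 arrays, and its values come from the fit without filters over 29742 genes. The median spot signal ranged from 8.66 to 44.8 units over the arrays, and 43.9% to 64.4% of spots were well above background. The lowest medians, 8.66 and 8.84, belonged to irradiated old mice 4 and 6. Across genes these arrays were close to each other (r = 0.989) but less like those of the other irradiated old mice (r = 0.776 to 0.850). The others were at r = 0.924 to 0.984 among themselves. Liver transcripts set some arrays apart from the rest. The mean of 18 hepatocyte markers was 9.08 to 10.2 in irradiated young mice 2, 4 and 5 and 8.67 to 9.37 in irradiated old mice 2, 3 and 5. It was 0.41 to 1.13 in the other irradiated young and −0.19 to 3.10 in the other irradiated old mice. In unirradiated mice it was −0.23 to 6.21 in the young and −1.32 to −0.86 in the old. The arrays with high hepatocyte markers left out below are those of the irradiated mice named first, and no unirradiated array is among them. Results are therefore also given without either set of arrays where a call changed. The arrays of young and old mice were scanned on different days, so that age and scanning day cannot be told apart. No slide held both ages. Slides 1 and 4 held only unirradiated mice, slides 3 and 6 only irradiated mice, and slides 2 and 5 held 2 mice of each treatment. Irradiation and slide are therefore separated only in part. Because the RNA is from whole blood, more cells of a type and more RNA per cell cannot be told apart either. Levels are relative to the array median, so a loss of RNA of other cells can also raise a level.

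**Figure D1:**
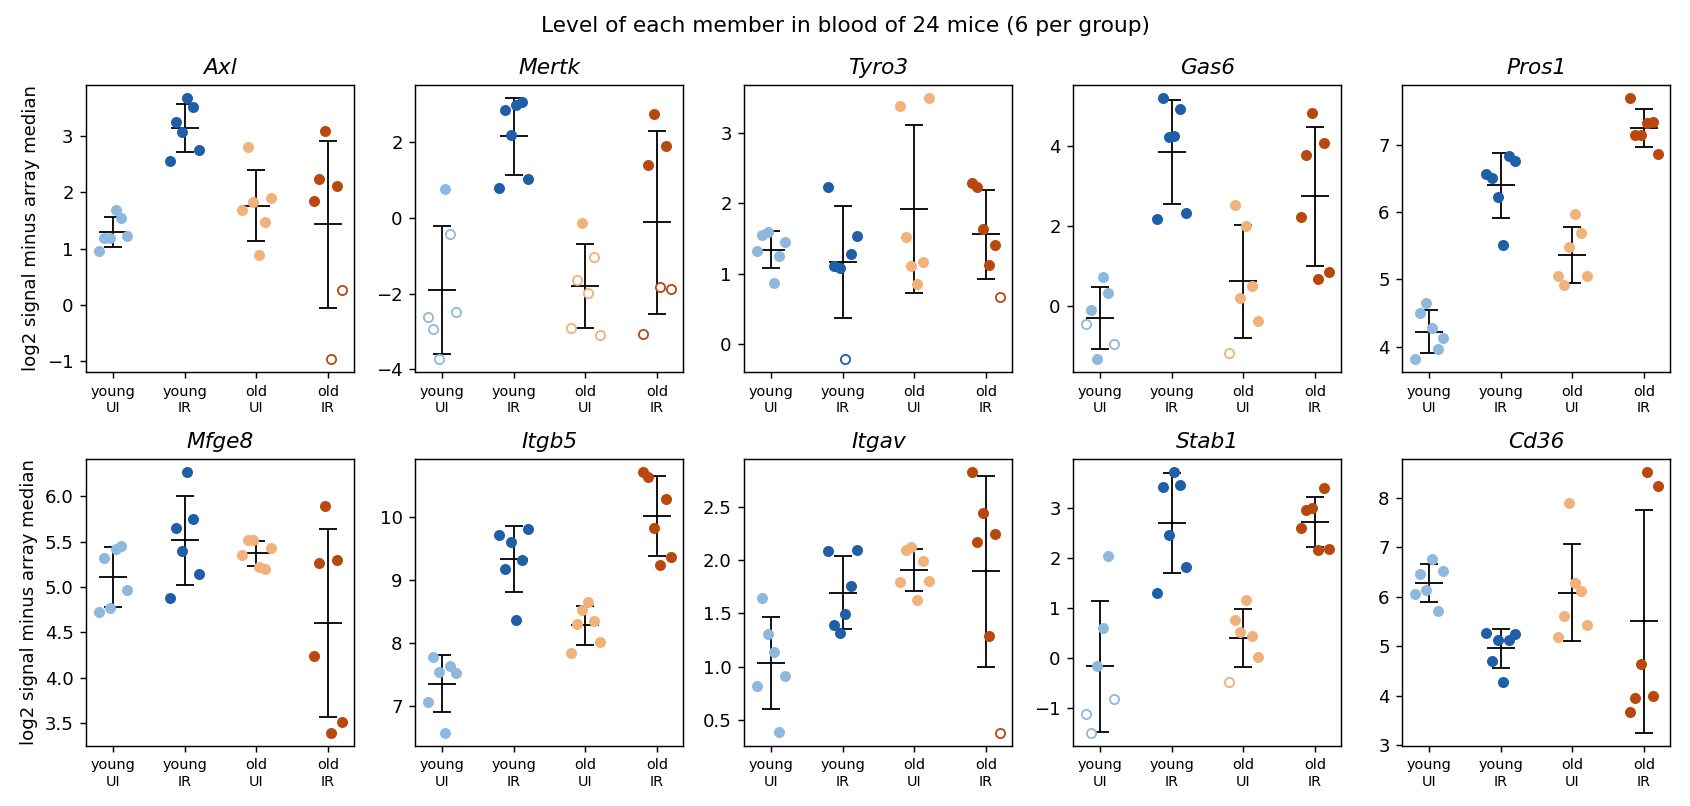
Level of each of the 10 members (log2 signal minus array median) in unirradiated (UI) and irradiated (IR) young and old mice. Each point is 1 mouse, open points were not well above background, and bars are the mean ± SD of 6 mice. Pros1 lay between 6.86 and 7.69 in irradiated old mice, above every mouse of the other groups.

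Irradiation of young mice was followed by higher levels of most members. Of the 9 tested, 5 rose (Axl, Gas6, Pros1, Itgb5 and Stab1), Cd36 fell, and Tyro3, Mfge8 and Itgav were not called. In all, 35.8% of genes were called in this comparison, 14.4% higher and 21.4% lower. The median difference of the 9 members was 1.84, and that of all genes was −0.20. The groups did not overlap for 4 of the members that rose and for Cd36, whereas 9.58% of all genes were higher and 15.4% lower without overlap. In the old mice, 3 of the 9 members were called, Pros1, Itgb5 and Stab1, all of them higher and without overlap. There, 25% of all genes were called, 7.6% of all genes being called higher and 17.4% lower, and 5.92% of genes were higher without overlap. The median difference of the members in old mice was −0.01, and that of all genes −0.25. Under the other scalings the latter lay between 0.01 and 0.32, and 1941 genes were called higher and 1642 lower with the median of probes above background on all arrays, against 1327 and 3040 here. Relative to the median of all genes, Pros1, Itgb5 and Stab1 were higher in old mice by 2.14, 1.99 and 2.58.

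**Figure D2:**
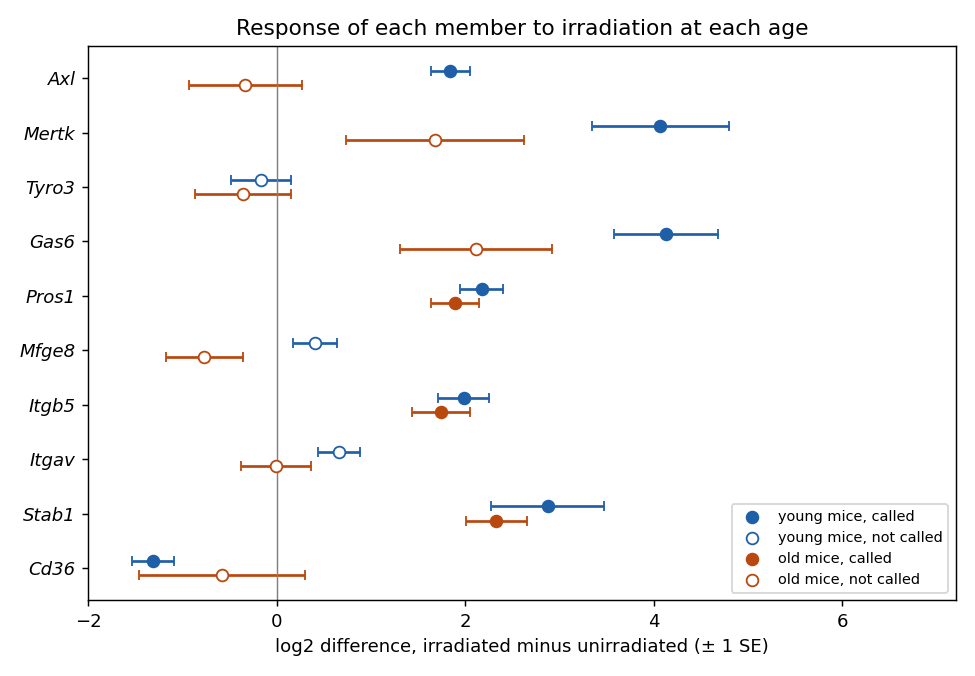
Difference between irradiated and unirradiated mice of the same age for each member (log2, ± 1 SE, 6 against 6 mice). Filled points were called; Pros1, Itgb5 and Stab1 were called at both ages, at 2.17, 1.99 and 2.87 in young and 1.89, 1.74 and 2.33 in old mice.

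Mertk is the TAM receptor best known for engulfment by macrophages, and its level differed widely between mice of 1 group. In unirradiated young mice 1 to 6 it measured −2.62, −2.93, −3.73, 0.76, −0.44 and −2.50, and was well above background only in mouse 4. In irradiated young mice it measured 0.80, 2.87, 2.20, 2.98, 3.07 and 1.03, well above background in all 6 mice. Every irradiated young mouse lay above every unirradiated one, but narrowly, the nearest values being 0.80 and 0.76. The share of genes without overlap was not counted for the unfiltered genes. The difference was 4.07 ± 0.73 (SE; limma without filters, adjusted p = 0.00136, 8.87% of genes called higher). Since 5 of the 6 unirradiated values were not well above background, the size of this difference rests on dim values, as does that of each difference of Mertk below. In unirradiated old mice Mertk measured −2.90, −1.64, −0.15, −1.98, −1.04 and −3.10, and in irradiated old mice −3.08, 1.39, 2.76, −1.82, 1.91 and −1.88. Only mice 2, 3 and 5 of the irradiated old group were above the unirradiated mice, and they were the mice in which Mertk was well above background. The difference in old mice was 1.68 ± 0.95 and was not called (limma without filters, adjusted p = 0.26). The test of the difference between the ages was not called either (−2.39 ± 1.26, limma adjusted p = 0.364).

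The level of Mertk followed the 16 tissue macrophage and Kupffer cell markers from mouse to mouse. The mean of these markers was 0.15 to 2.54 in unirradiated young mice and 3.26 to 5.04 in irradiated young mice. It was −0.12 to 2.61 in unirradiated old mice, 3.96, 4.76 and 4.17 in irradiated old mice 2, 3 and 5, and 0.22, 1.42 and 1.52 in irradiated old mice 1, 4 and 6. Marco, a scavenger receptor of resident macrophages, ranged from 7.11 to 9.24 in irradiated young and from −0.02 to 7.97 in irradiated old mice, while Cd163 was not well above background on any array. The 3 irradiated old mice with Mertk above background also had high hepatocyte markers. Without the arrays with high hepatocyte markers, Mertk differed by 3.25 ± 0.92 in young mice (limma adjusted p = 0.0308, no longer called) and by −0.46 ± 0.61 in old mice. In that subset the difference between the ages was −3.71 ± 1.14 (limma without filters, adjusted p = 0.0386, called). The mice left out include each irradiated old mouse with Mertk above background, and 12.1% of all genes were called for age against irradiation there, so the value restates the split among these mice. The part of macrophage or liver RNA in these values was not tested.

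Axl, the TAM receptor induced by inflammatory signals, is given briefly. It ranged from 0.95 to 1.68 in unirradiated and from 2.56 to 3.68 in irradiated young mice, and rose by 1.84 ± 0.21 (limma adjusted p = 2.88e-05). In irradiated old mice it ranged from −0.96 to 3.08 against 0.89 to 2.80 in unirradiated ones, a difference of −0.33 ± 0.60 (limma adjusted p = 0.683). The 2 irradiated old mice in which it was not well above background, mice 4 and 6, had the lowest median signal. Axl came nearest to a difference between the ages in response (−2.17 ± 0.66, limma adjusted p = 0.121). That value was called without irradiated old mouse 3 (−2.50, adjusted p = 0.0381). It was also called without the arrays with high hepatocyte markers (−2.87 ± 0.63, limma adjusted p = 0.00749), where 20.7% of all genes were called for age against irradiation; this leaves irradiated old mice 1, 4 and 6, of which mice 4 and 6 had the lowest Axl. Without mice 4 and 6 it was −1.28 ± 0.40 and was not called (limma adjusted p = 0.164).

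Tyro3, the TAM receptor known mainly from the nervous system and also present in lymphoid and platelet lineages, did not differ with irradiation beyond its spread. It measured 1.33, 1.55, 1.59, 0.87, 1.25 and 1.44 in unirradiated young mice and 2.22, 1.11, 1.07, −0.21, 1.28 and 1.54 in irradiated young mice. The difference was −0.17 ± 0.32 (limma adjusted p = 0.69). In unirradiated old mice it measured 3.37, 1.52, 1.11, 0.86, 1.16 and 3.49, and in irradiated old mice 2.28, 2.23, 1.63, 1.12, 1.41 and 0.67. The difference was −0.36 ± 0.51 (limma adjusted p = 0.6). Unirradiated old mice 1 and 6 stood apart from the other 22 arrays, and the mean of 8 T cell markers in them was 7.30 and 7.46, against 5.76 to 6.41 in the other unirradiated old mice. That mean was 6.17 to 6.60 in unirradiated young, 3.89 to 5.61 in irradiated young and 5.30 to 6.48 in irradiated old mice. Irradiated old mice 4 and 6 had the highest T cell means of their group, 6.35 and 6.48, but the lowest Tyro3. The arrays of unirradiated old mice 1 and 6 were also the closest pair of any group (r = 0.994 across genes). The second Tyro3 probe was not well above background on any array.

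The ligand Pros1 rose at both ages with little spread. In unirradiated young mice it measured 3.82, 4.5, 4.65, 4.27, 3.96 and 4.13, and in irradiated young mice 6.57, 6.51, 6.22, 5.51, 6.83 and 6.75. All irradiated mice lay above all unirradiated ones, and the difference was 2.17 ± 0.23 (4.51-fold, limma adjusted p = 1.83e-05). Unirradiated old mice measured 5.06, 4.92, 5.48, 5.96, 5.70 and 5.05, and in irradiated old mice 7.69, 7.14, 7.14, 7.32, 7.33 and 6.86. The groups were again separate, and the difference was 1.89 ± 0.25 (3.70-fold, limma adjusted p = 0.000429). The responses of young and old mice differed by −0.29 ± 0.34 (limma adjusted p = 0.583). Within the slide that held both treatments, with 2 mice of each, the Pros1 difference was 2.49 for the young and 2.04 for the old mice.

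Gas6, the ligand with the highest affinity for Axl, was more variable. It ranged from −1.31 to 0.72 in unirradiated and from 2.18 to 5.19 in irradiated young mice, and rose by 4.13 ± 0.55 (limma adjusted p = 8.47e-05). In old mice it ranged from −1.16 to 2.52 without and from 0.68 to 4.82 with irradiation, a difference of 2.12 ± 0.81 that was not called (limma adjusted p = 0.0561). As for Mertk, irradiated old mice 2, 3 and 5 had the highest values, 3.76, 4.82 and 4.07. Those are the mice with high macrophage and hepatocyte markers, whose part in these values was not tested. Without irradiated old mice 4 and 6, the lowest, the difference was called (3.10 ± 0.71, limma adjusted p = 0.00468, with 34.7% of all genes called). Without the arrays with high hepatocyte markers, the highest in old mice, it was 0.64 ± 0.75 (limma adjusted p = 0.48).

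Mfge8, the milk fat globule protein that bridges phosphatidylserine to αv integrins, was not called at either age. It measured 4.72, 5.32, 4.77, 5.42, 5.46 and 4.97 in unirradiated young mice and 4.87, 5.65, 5.40, 6.27, 5.74 and 5.14 in irradiated young mice, a difference of 0.40 ± 0.23 (limma adjusted p = 0.179). It lay within 5.19 to 5.51 in unirradiated old mice. In irradiated old mice it measured 4.25, 5.26, 5.90, 3.40, 5.30 and 3.52, and mice 1, 4 and 6 lay below all unirradiated old mice. The difference was −0.77 ± 0.41 (limma adjusted p = 0.164). Without the arrays with high hepatocyte markers, which leaves just these 3 mice, the difference was −1.65 ± 0.28 in old mice and the ages differed by −1.68 ± 0.34 (both called, limma adjusted p = 0.00118 and 0.00538, with 40.5% and 20.7% of all genes called). These values restate which mice remained. Without mice 4 and 6 the difference in old mice was −0.20 ± 0.27.

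Itgb5, the β5 chain that pairs with αv, rose at both ages. It measured 7.05, 7.78, 7.54, 6.57, 7.63 and 7.52 in unirradiated young mice and 9.72, 9.17, 9.60, 8.37, 9.32 and 9.81 in irradiated ones. The groups did not overlap, and the difference was 1.99 ± 0.27 (3.96-fold, limma adjusted p = 0.0001). Unirradiated old mice measured 7.84, 8.29, 8.53, 8.65, 8.35 and 8.01, and in irradiated ones 10.73, 10.64, 9.82, 9.24, 10.30 and 9.37. The groups did not overlap here either, and the difference was 1.74 ± 0.31 (3.34-fold, limma adjusted p = 0.00166). The ages differed in response by −0.25 ± 0.41 (limma adjusted p = 0.706). Within the shared slide the difference was 1.87 in young and 2.50 in old mice.

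The group levels of Pros1 and Itgb5 moved with those of the platelet markers. The mean of 11 platelet markers was 7.29 to 8.22 in unirradiated young, 8.50 to 10.4 in irradiated young, 8.48 to 9.50 in unirradiated old and 10.3 to 11.1 in irradiated old mice, and all 11 were well above background in every mouse. Irradiated young mouse 4, which had the lowest Pros1 and Itgb5 of its group, also had the lowest platelet mean, 8.50. The order within the irradiated old mice was different: Itgb5 was lowest in mice 4 and 6, whose platelet means were 11.1 and 11.0, and Pros1 was lowest in mouse 6, whereas mouse 3 had the lowest platelet mean, 10.3. Pf4, a chemokine of platelet granules, had medians of 11.4, 12.7, 11.9 and 13.2 in the same order of groups. In the blood counts of the study (n = 3), platelet numbers changed little with irradiation at either age, while the percentage of lymphocytes among white cells fell. Unirradiated old mice had higher platelet counts than unirradiated young mice there. The part of platelet RNA in the values of Pros1 and Itgb5 was not tested, nor was that of a loss of RNA of other cells.

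**Figure D3:**
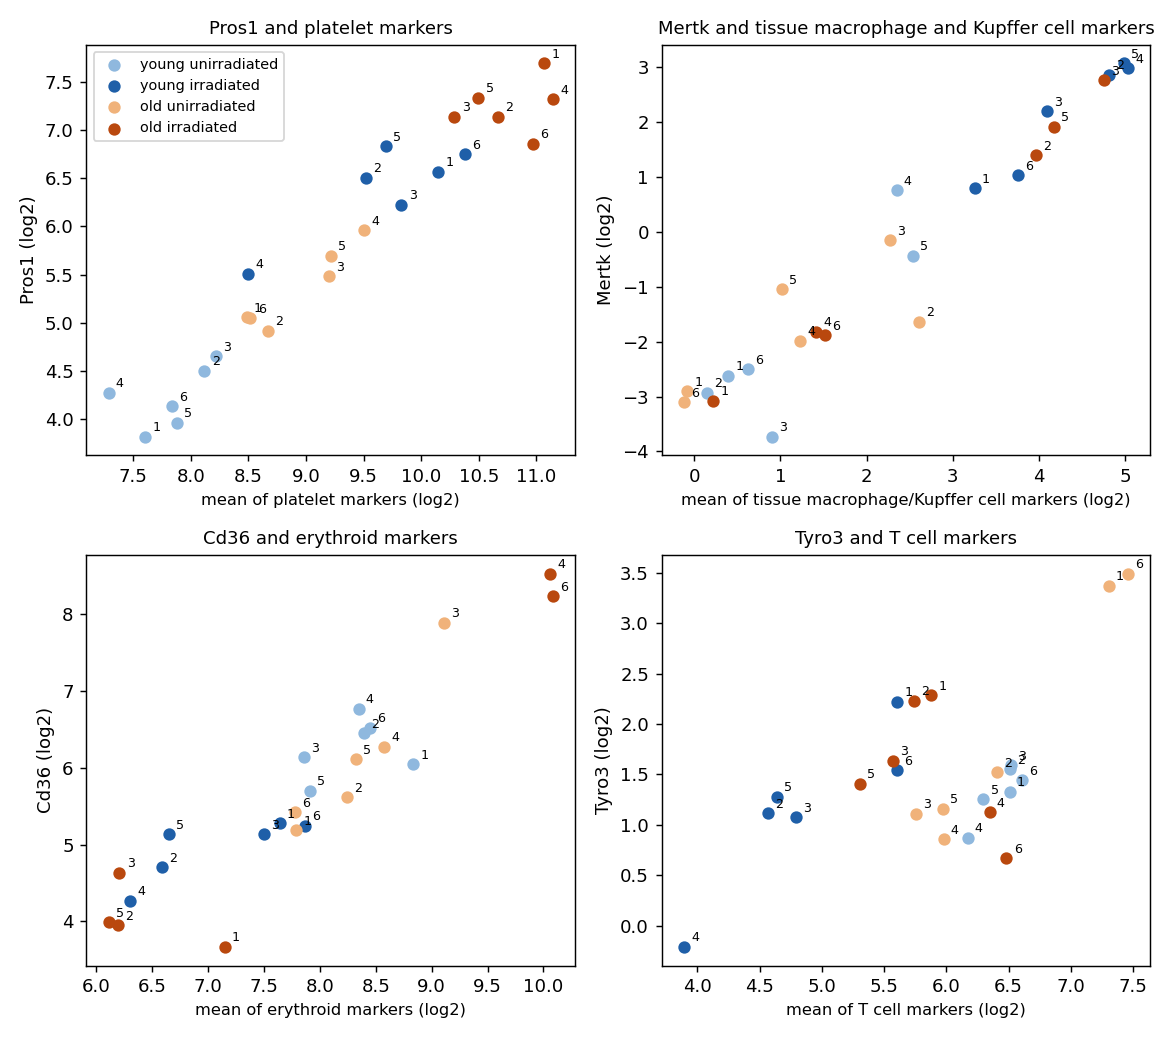
A member and the mean of a cell type's markers in each of the 24 mice (log2, points numbered by mouse within the group) for Pros1 and platelets, Mertk and macrophages, Cd36 and red cell precursors, and Tyro3 and T cells. Irradiated old mice 2, 3 and 5 lie with the irradiated young mice for Mertk, mice 4 and 6 of that group lie apart for Cd36, and unirradiated old mice 1 and 6 for Tyro3.

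Itgav, the αv chain itself, was not called at either age. In unirradiated young mice it ranged from 0.39 to 1.65 and in irradiated ones from 1.32 to 2.09, and only 3 of the irradiated mice exceeded all unirradiated mice. The difference was 0.66 ± 0.22, with an adjusted p of 0.0272 in limma but an unadjusted p of 0.0113, so it was not called. In old mice it ranged from 1.63 to 2.12 without and from 0.38 to 2.83 with irradiation, a difference of −0.01 ± 0.37 (limma adjusted p = 0.984). Irradiated old mice 4 and 6 held the lowest values, 1.29 and 0.38. The second Itgav probe, dimmer and well above background on 15 arrays, had group means of −0.89 and 0.30 in young and 0.37 and 0.06 in old mice.

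Stab1, a scavenger receptor of tissue macrophages and sinusoidal endothelium, rose at both ages. It measured −1.14, −1.51, −0.17, 0.60, 2.04 and −0.84 in unirradiated young mice and 1.30, 3.43, 2.46, 3.74, 3.48 and 1.82 in irradiated young mice. Unirradiated mouse 5 lay above irradiated mice 1 and 6, and the difference was 2.87 ± 0.60 (7.33-fold, limma adjusted p = 0.00177). In unirradiated old mice it measured −0.49, 0.76, 0.51, 1.15, 0.43 and 0.02, and in irradiated old mice 2.61, 2.97, 3.01, 2.17, 3.41 and 2.19. These groups were separate, and the difference was 2.33 ± 0.32 (5.03-fold, limma adjusted p = 0.000475). Unlike Mertk and Gas6, Stab1 was high in all 6 irradiated old mice, including mice 1, 4 and 6 with low macrophage markers, and it was called in old mice without the arrays with high hepatocyte markers (1.93 ± 0.37, limma adjusted p = 0.00194). In young mice it was not called without such arrays (2.03 ± 0.68, limma adjusted p = 0.0334), a subset in which unirradiated mouse 5, whose hepatocyte mean was 6.21, remained. The mean of 12 endothelial markers was 1.5 to 2.05 and 2.89 to 3.44 in unirradiated and irradiated young mice, and 1.96 to 2.55 and 3.17 to 4.03 in old mice. Stab2, a scavenger receptor of sinusoidal endothelium, had medians of −1.77, 0.13, −0.73 and 1.51 in the same order, and Cdh5, which defines endothelial junctions, was well above background in 1, 3, 0 and 3 mice. Kdr, a growth factor receptor of endothelium, was well above background in all mice and had medians of 8.67, 8.36, 7.99 and 8.22, so that it did not follow the mean of the list. Over the 24 arrays the mean of the endothelial list had Pearson r = 0.751 with Stab1, below 0.907 with Pros1 and 0.895 with Itgb5. Stab1 had r = 0.805 with the mean of the macrophage markers. The part of endothelial RNA was not tested.

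Cd36 was the member that fell in young mice. It measured 6.05, 6.45, 6.14, 6.76, 5.70 and 6.52 in unirradiated young mice and 5.27, 4.71, 5.13, 4.27, 5.13 and 5.24 in irradiated young mice. All irradiated mice lay below all unirradiated ones, and the difference was −1.31 ± 0.22 (2.48-fold lower, limma adjusted p = 0.000431). The call was lost with normexp background correction (−0.69, limma adjusted p = 0.657) and in a single fit of all 24 arrays, where the spread of the old mice enters (adjusted p = 0.151). Cd36 in unirradiated old mice measured 5.19, 5.61, 7.88, 6.27, 6.11 and 5.42, and in irradiated old mice 3.67, 3.95, 4.63, 8.52, 3.99 and 8.23. Irradiated old mice 1, 2, 3 and 5 were lower than all unirradiated old mice, and mice 4 and 6 were higher than all of them. The difference over the 6 mice was −0.58 ± 0.88 (limma adjusted p = 0.628), and without mice 4 and 6, which leaves the 4 lower mice, it was −2.02 ± 0.46 and was called (limma adjusted p = 0.00435, with 34.7% of all genes called). The mean of 8 erythroid markers was 10.06 and 10.09 in mice 4 and 6 and 6.11 to 7.15 in the other irradiated old mice. In the remaining groups it was 7.86 to 8.84 in unirradiated young, 6.31 to 7.86 in irradiated young and 7.78 to 9.11 in unirradiated old mice. The part of red cell precursors in the values of Cd36 was not tested.

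The calls in old mice depended on background correction. With normexp none of the 3 members was called, at 2.31 for Pros1, 2.34 for Itgb5 and 0.97 for Stab1 (limma adjusted p = 0.0696, 0.0898 and 0.213). With that correction 8 of 11774 genes were called in all.

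Comparison of unirradiated old with unirradiated young mice gave 3 members called, Pros1 (1.14 ± 0.21), Itgb5 (0.93 ± 0.22) and Itgav (0.87 ± 0.19), all higher in old mice (limma adjusted p = 0.000313, 0.00155 and 0.00115). In this comparison 63.8% of all genes were called, of which the higher ones made up 48.2% of all genes, and the median of all genes was itself 0.63 higher in old mice. Relative to that median, the 3 members were higher by 0.51, 0.30 and 0.25. None of them was called under the other scalings, in which the median of all genes lay between −0.06 and 0.14. The split of calls also turned, from 8429 higher and 2711 lower genes to 1299 and 4151 with the median of probes above background on all arrays. The other 6 members tested had differences from −0.19 for Cd36 to 0.91 for Gas6 and were not called, and Mertk differed by 0.11 ± 0.73.

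Between irradiated old and irradiated young mice none of the 9 members was called, while 2% of all genes were (245 higher and 105 lower, but 28 and 86 with 75th percentile scaling). At an unadjusted p below 0.05 there were 2 members: Axl (−1.71 ± 0.58) had a lower and Pros1 (0.85 ± 0.27) a higher mean in old mice (limma adjusted p = 0.121 and 0.109). Pros1 was the single member whose groups did not overlap, and 5.07% of all genes did not overlap. Both genes were called in a fit of all 24 arrays (limma adjusted p = 0.015 and 0.017). In that fit 2043 of the 17472 genes were called higher and 478 lower, more than in the fit given here. The test of age against irradiation called 0 of the 9 members and 0% of all genes by limma, although 4116 of them had p below 0.05 before adjustment. Among the 9 members these were Axl and Mfge8 (−1.17 ± 0.48, limma adjusted p = 0.164), and the random variance test also called 0 members.

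The other genes of the pathway were described with a list of 91 genes in 8 groups, of which 80 were tested. In young mice 35 rose and 7 fell (43.8% and 8.75% of those tested, beside 14.4% and 21.4% of all genes), with a median difference of 0.73 beside −0.20 for all genes. In old mice 15 rose and 4 fell (18.8% and 5%, beside 7.6% and 17.4% of all genes), with a median of 0.27 beside −0.25. In young mice 12 of 17 engulfment receptors rose and 1 fell, and 7 of 10 bridging molecules rose. In old mice these counts were 5 of 17 receptors and 2 of 10 bridging molecules, with none lower. Marco rose by 5.65 ± 0.83 in young mice, and C1qc and C1qa, chains of the complement protein that coats dying cells, by 4.91 ± 0.997 and 4.69 ± 0.998 (limma adjusted p = 0.000165, 0.00148 and 0.00202). Timd4, a phosphatidylserine receptor of resident macrophages, rose by 3.71 ± 0.73 in young mice (limma adjusted p = 0.00119). These 4 genes are among the 5 that this list shares with the macrophage markers. The difference of Timd4 in old mice was 2.68 ± 1.04 (limma adjusted p = 0.0593).

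**Figure D4:**
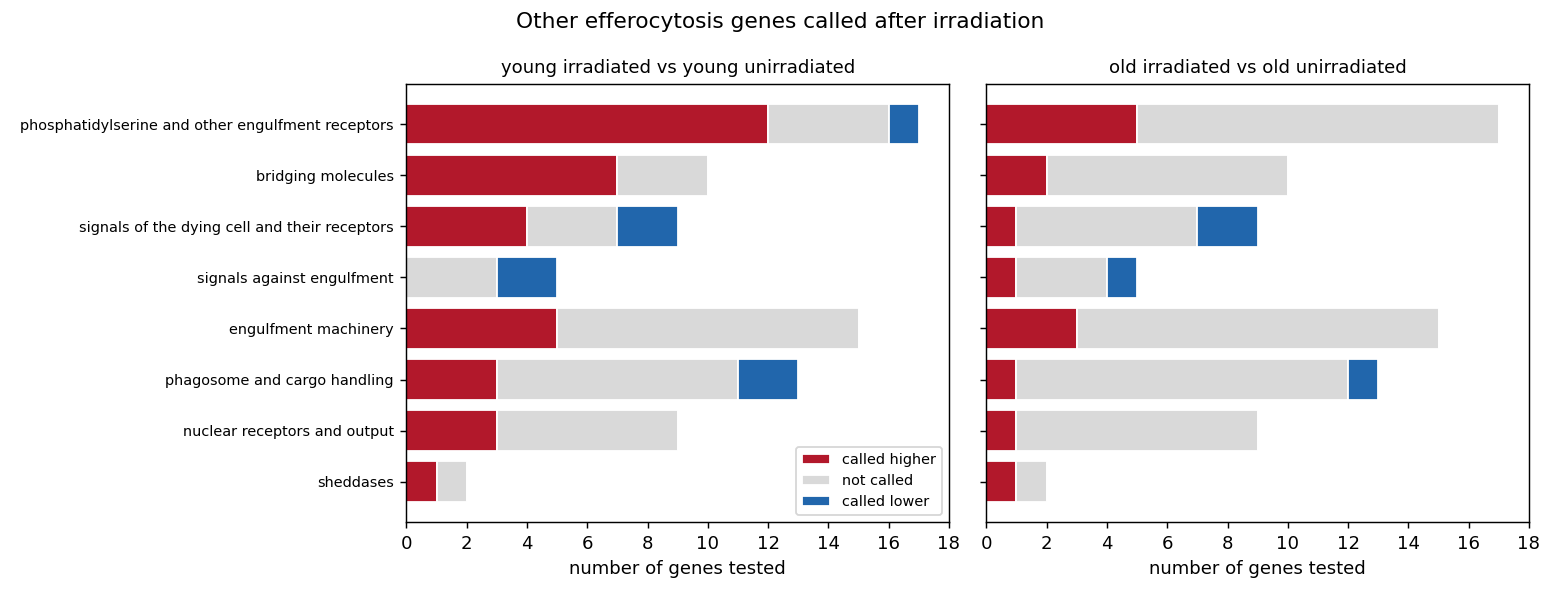
Number of tested genes of the wider efferocytosis list that were called higher, called lower or not called after irradiation, by group of the list, in young (left) and old mice (right). Engulfment receptors were called higher for 12 of 17 genes in young and 5 of 17 in old mice.

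In old mice, the largest rises of the list by the naming rule were those of Olr1, an oxidized lipoprotein receptor (3.11 ± 0.37), Thbs1, the thrombospondin that binds Cd36 (2.86 ± 0.36), and Itgb3, the integrin β3 chain and a member of the platelet list (2.06 ± 0.28). Their limma adjusted p was 0.000242, 0.000307 and 0.000461. All 3 were also called higher in young mice, by 2.71 ± 0.34, 2.36 ± 0.23 and 1.86 ± 0.28 (limma adjusted p = 5.75e-05, 9.56e-06 and 0.000177). Siglecg, an inhibitory receptor of B cells, fell in both young (−2.11 ± 0.25) and old mice (−2.35 ± 0.39; limma adjusted p = 3.44e-05 and 0.0012). The mean of 8 B cell markers was 5.74 to 7.0 in unirradiated mice of both ages and 1.79 to 4.11 in irradiated mice. Rubcn, a regulator of phagosome maturation, also fell at both ages (−1.56 ± 0.17 and −2.78 ± 0.45; limma adjusted p = 2.34e-05 and 0.00102). Cd24a, a signal against engulfment, fell in young mice (−1.45 ± 0.30, limma adjusted p = 0.00161), with a difference of −0.31 ± 0.88 in old mice that was not called. S1pr1, the receptor for a lipid released by dying cells, fell in young (−1.43 ± 0.26, limma adjusted p = 0.000705) and old mice (−2.74 ± 0.61, limma adjusted p = 0.00514). The mean of 8 T cell markers was 6.17 to 6.60 and 3.89 to 5.61 in unirradiated and irradiated young mice, and 5.76 to 7.46 and 5.30 to 6.48 in old mice. The part of lymphocyte RNA in the values of S1pr1 was not tested. Trem2 rose by 1.08 ± 0.18 in young mice (limma adjusted p = 0.000403), and its difference in old mice was −0.67 ± 0.38. Tyrobp, its signaling adaptor, rose by 1.05 ± 0.14 in young mice (limma adjusted p = 8.26e-05), with a difference of 0.08 ± 0.55 in old mice. Adam10, a protease that sheds surface receptors, rose in young (0.73 ± 0.18) and old mice (1.08 ± 0.24; limma adjusted p = 0.00556 and 0.00476).

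With age alone, in unirradiated mice, 51 of the 80 genes were called higher and 4 lower, with a median of 0.91 beside 0.63 for all genes. The share called, 68.8%, was near the 63.8% of all genes, and 14 to 27 genes of the list were called with the deposited values or the other scalings, under which the split over all genes turned. The largest were Cd300lf (2.52 ± 0.37), Socs3 (2.40 ± 0.33) and Anxa1 (2.12 ± 0.26) among the higher, and Rxra (−2.36 ± 0.22) and Tub (−1.99 ± 0.19) among the lower genes (limma adjusted p = 6.34e-05, 4.62e-05, 2.02e-05, 2.97e-06 and 3.71e-06). Between irradiated old and young mice, 3 genes were called higher, Abca7 (1.42 ± 0.26), Cd93 (1.27 ± 0.26) and Anxa5 (1.10 ± 0.23), with limma adjusted p = 0.0223, 0.0323 and 0.0345. They were 3.75% of those tested, near the 2% of all genes called. With the median of probes above background on all arrays 1 gene of the list was called. With 75th percentile, quantile, normexp or the deposited values 0 were called. For age against irradiation limma called 0 of the 80 genes, 23 of which had an unadjusted p below 0.05, and 15 were called without the arrays with high hepatocyte markers, a share near the 20.7% of all genes called there.

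For the 9 members that passed the background filter, thus not for Mertk, the genes with the most similar pattern over the 24 arrays were sought among 12402 genes well above background on at least 12 arrays, as a description without a test. The arrays share scaling, scanning days and group means. Itgb5 was most like Adgrg1, Tal1 and Pdgfa (Pearson r = 0.992, 0.992 and 0.991), and Pros1 most like F5, Tubb1 and Cttn (r = 0.987, 0.981 and 0.981). Mfge8 was most like Pelp1, Snrnp35 and Dpp7 (r = 0.964, 0.955 and 0.951) and Cd36 most like Map4k5, Mpp1 and Yipf4 (r = 0.964, 0.961 and 0.959). Gas6 was most like Grn, Rab11fip5 and Dock1 (r = 0.949, 0.939 and 0.932), Stab1 most like F10, Ccnd1 and Pon3 (r = 0.949, 0.938 and 0.933), and Axl most like Sash1, Pycard and Cmtm3 (r = 0.935, 0.927 and 0.924). Itgav was most like Mfsd14a, Unc119 and Ppp3r1 (r = 0.906, 0.905 and 0.898) and Tyro3 most like Btbd11, Ctsw and Gata3 (r = 0.890, 0.888 and 0.875).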

How the data were processed

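Whole-blood RNA of 24 mice was hybridized to Agilent 1-color arrays of 44397 spots. The authors deposited the scanner output of each array (Feature Extraction 12.0.2), whose background-corrected intensity was used here, and a table of log2 values with array medians of 5.77 to 6.73 and unstated centering, which was used only as an alternative. Probe coordinates in the files refer to mm9 and were not used. Here the log2 intensity of 43020 non-control spots was centered on each array's median, non-uniform spots were set to missing and repeat spots averaged. Following the methods of the study, probes that were non-uniform or not above background on 25% or more of arrays were dropped, a 1.5-fold departure from the median was required on 5 or more arrays, and the probe with the highest mean represented a gene. Groups were compared with limma 3.58.1 (R 4.3.3) in 12-array fits, and age against irradiation in 1 fit of 24 arrays, in place of the random variance test of the study, which served as an alternative. The code was tested on simulated data. Named genes were all members and, of the wider list, Trem2, Tyrobp, Adam10, Timd4 and up to 3 called genes per direction with the largest difference, without overlap and well above background in all 6 mice of a group; the most similar genes were the 3 with the highest Pearson correlation. Of the 13 lists of cell type markers, those of the hepatocyte, macrophage, endothelial, platelet, erythroid, B cell and T cell are described in the report and the others in the closing section. The members and lists were chosen with earlier results of these data known. The number of arrays, 6 per group, limits the precision.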

Additional observations from a re-analysis of the deposited data

How the results depend on the processing

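Calls in young mice moved little: 6 members were called in the reported fit and 5 to 7 under each alternative, and 6 or 7 when each mouse was left out in turn. In old mice 3 members were called whichever mouse was left out and 0 with normexp. Without irradiated old mice 4 and 6, 5 members were called, and 34.7% of all genes. Between unirradiated old and young mice, 3 were called whichever mouse was left out, but 0 with 75th percentile, quantile, normexp, the deposited values or the median of probes above background on all arrays. Between irradiated old and young mice, 2 were called in 1 fit of all 24 arrays and 2 with slide as a random block. Over all 17472 genes, 2043 were called higher and 478 lower in the former, and 1027 and 314 in the latter. For age against irradiation, leaving out each mouse gave 0 to 1 members (Axl without irradiated old mouse 3). Leaving out the arrays with high hepatocyte markers gave 2, Axl and Mfge8, with 20.7% of all genes called. These 2 sets of arrays were chosen after seeing the data. For the wider list, normexp called 19 genes in young mice, 1 in old mice, 0 between unirradiated and 0 between irradiated ages, against 42, 19, 55 and 3. Between unirradiated ages 75th percentile, quantile, median of bright probes and deposited values called 26, 27, 25 and 14, and between irradiated ages 0, 0, 1 and 0, with 1 without filters. Without irradiated old mice 4 and 6, 31 of the 80 tested were called in old mice and 24 between irradiated ages. In those fits 34.7% and 28.5% of all genes were called. Without the arrays with high hepatocyte markers 15 were called for age against irradiation, where 20.7% of all genes were called. The causes were not tested.

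Differences that changed sign were all of members not called in the reported fit. After irradiation these were Tyro3 in young mice (0.27 without the arrays with high hepatocyte markers), and in old mice Axl (0.0025 with the median of bright probes, 0.22 with normexp, 0.56 without mice 4 and 6), Mertk (−0.46) and Cd36 (0.73) without the arrays with high hepatocyte markers, Cd36 with normexp (0.041), and Itgav (75th percentile 0.29, quantile 0.13, bright probes 0.32, normexp 0.28, deposited 0.12, without mice 4 and 6 0.52). Between unirradiated ages they were Axl (−0.056, −0.10 and −0.0064 with 75th percentile, bright probes and deposited values), Mertk (−0.41 and −0.45 with the first 2) and Mfge8 (−0.26, −0.36, −0.30, −0.18 and −0.47 with 75th percentile, quantile, bright probes, normexp and deposited values). Between irradiated ages they were Tyro3 (−0.25) and Itgav (−0.33) without the arrays with high hepatocyte markers, Itgav (75th percentile −0.023, bright probes −0.064, deposited −0.0029, mean of probes −0.016), Stab1 (75th percentile −0.20, quantile −0.15, bright probes −0.24, normexp −0.24, deposited −0.13, slide −0.0042) and Cd36 without mice 4 and 6 (−0.90). For age against irradiation they were Tyro3 (75th percentile 0.10, bright probes 0.10, deposited 0.16, without mice 4 and 6 0.14), Pros1 (0.0078 and 0.0066) and Itgb5 (0.047 and 0.046) with 75th percentile and bright probes, and, without mice 4 and 6, Itgb5 (0.11) and Cd36 (−0.71).

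Of the other single-member differences, with the same direction, 4 calls were lost and 1 gained in young mice, 3 lost and 3 gained in old mice, 16 lost between unirradiated ages, 4 gained between irradiated ages and 3 gained for age against irradiation. Those lost in the first 2 comparisons are named in the report.

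Leaving out each mouse in turn gave ranges that crossed 0 for Tyro3 in young mice (−0.38 to 0.11) and Axl (−0.66 to 0.15) and Itgav (−0.20 to 0.29) in old mice. Between unirradiated ages this held for Mertk (−0.26 to 0.64), between irradiated ages for Stab1 (−0.26 to 0.23) and Cd36 (−0.064 to 0.91), and for age against irradiation for Tyro3 (−0.47 to 0.12).

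The replicate numbers do not pair the mice: same-numbered irradiated and unirradiated mice had correlations of −0.29 to 0.34 in their deviations, over 0.1 in 7 of 12 pairs. With the replicate number as a block, 6, 3, 3, 0 and 0 members were called in the 5 comparisons, as without it.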

Other observations

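Of the cell type lists not described above, the mean of 11 neutrophil markers was 3.70 to 4.75 in unirradiated young, 4.55 to 5.46 in irradiated young, 5.24 to 7.11 in unirradiated old and 5.65 to 7.77 in irradiated old mice. The mean of 11 monocyte markers was 5.74 to 6.38, 5.92 to 6.74, 6.74 to 7.71 and 5.27 to 7.31 in the same order, with the lowest values of irradiated old mice, 5.27 and 5.43, in mice 4 and 6. The mean of 7 NK cell markers was 4.05 to 5.39, 4.87 to 6.79, 4.15 to 5.53 and 5.04 to 6.17. Muscle markers lay between −2.02 and 1.17 on all arrays, with the highest value in irradiated old mouse 3. Fibroblast markers were −2.06 to 0.22, −0.84 to 1.93, −1.78 to 0.09 and −1.35 to 0.67, and adipocyte markers −0.59 to 0.78, 0.28 to 1.52, −0.90 to 0.12 and −0.35 to 0.92.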
